A study of Mus musculus with 6 samples.

Results

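The genes described here encode the 4 classical families of axon guidance cues and their receptors: semaphorins with plexins and neuropilins, netrins with Dcc, Neo1 and the Unc5 receptors, Slits with Robos, and ephrins with Eph receptors. Members were picked by gene name, and the choice of these families was made with earlier results of these data known. In all, 70 of the 55359 annotated genes in the deposited tables carried such a name. RNA sequencing measured them in whole brains of mouse embryos at E18.5, shortly before birth. The 3 S156A libraries came from embryos with a knock-in of the S156A form of PME-1, and the 3 WT libraries from wild-type embryos. PME-1, encoded by Ppme1, is an enzyme that demethylates the catalytic subunit of the phosphatase PP2A, and S156A puts alanine in place of its active-site serine. The labels give neither the zygosity of the knock-in nor the sex of the embryos, and each library is a pool of 3 brains, so how far single embryos differ was not measured.

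Guidance cues steer growing axons by attracting or repelling the growth cone, and many of them also direct cell migration, vessel growth and the maintenance of progenitors. Class 3 semaphorins are secreted and mostly act through a neuropilin paired with a class A plexin, while most other semaphorins are bound to membranes and bind plexins directly. Netrins attract axons through Dcc and repel them through Unc5 receptors, and Slits repel them through Robo receptors. Ephrins and Eph receptors act at contacts between cells, and both partners can signal. At late gestation the main brain tracts are growing and cortical layers are still forming.

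All of these families were expressed in S156A and WT brains, and no summed level of a family separated the 2 genotypes. Levels are given in TPM, the abundance of a transcript as a share of its library. Of the 70 members, 69 had a mean of at least 1 TPM over the 6 libraries and were tested. Netrin-5 (Ntn5), at a mean of 0.919 TPM, was the one left out. Their median level was 26.1 TPM, against 15.4 TPM over all 18893 tested genes, and 55 members had a mean of 10 TPM or more. The most abundant were Efnb3 at a mean of 175 TPM, Plxnb2 at 108 TPM, and Plxna1 and Plxna3 at 96.6 and 96.4 TPM.

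Split into 16 subfamilies and summed over their members, plexins were the most abundant, at 537 ± 81.5 TPM in S156A and 521 ± 53.1 TPM in WT (SD, n = 3 each). The ephrin-B ligands followed at 306 ± 37.0 TPM in S156A and 287 ± 26.1 TPM in WT. Class 6 semaphorins summed to 217 ± 20.8 TPM in S156A and 231 ± 18.7 TPM in WT, and class 4 semaphorins to 211 ± 13.7 TPM in S156A and 220 ± 13.4 TPM in WT. EphA receptors summed to 155 ± 26.8 TPM in S156A and 173 ± 24.0 TPM in WT, and EphB receptors to 181 ± 10.7 TPM in S156A and 185 ± 10.6 TPM in WT. In each of the 16 subfamilies the libraries of the 2 groups overlapped. The ratio of the S156A mean to the WT mean lay between 0.896 for the EphA receptors and 1.15 for Dcc and Neo1.

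**Figure D1:**
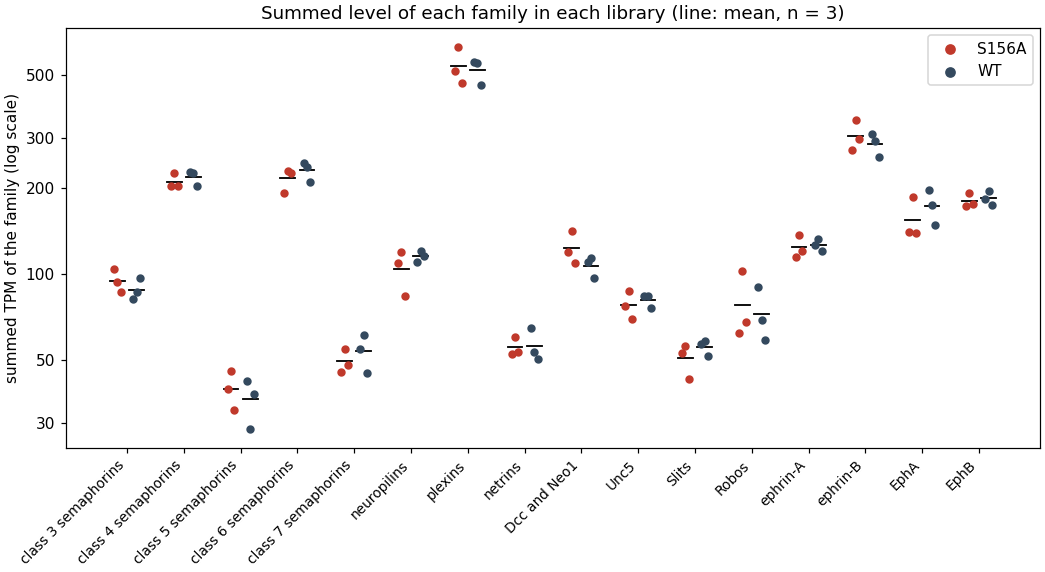
Summed TPM of each family (vertical axis, log scale) in the 3 S156A libraries (red) and the 3 WT libraries (grey-blue), with the mean as a line. Plexins lie highest, at means of 537 TPM in S156A and 521 TPM in WT, and the groups overlap in every family.

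S156A was compared with WT to ask which of these transcripts differ when PME-1 carries the active-site change. None of the 69 tested members was called at an adjusted p under 0.05 (limma over all genes, Benjamini-Hochberg), where 0.159% of all tested genes were. The smallest adjusted p was 0.080, for Epha10. At an unadjusted p under 0.05 there were 10 members, 5 higher and 5 lower in S156A. These are 14.5% of the members, against 13.9% of all tested genes (8.41% higher and 5.5% lower), so their number was near the background. In 14 members, or 20.3%, the groups did not overlap, against 20.8% of all genes. S156A was the higher group in 8 of them (11.6% of the members, against 13.7% of all genes) and the lower group in 6 (8.70%, against 7.05%). Differences are given on the log2(TPM + 1) scale, S156A minus WT, on which weakly expressed genes show smaller changes than in TPM. The median over the members was -0.05, against 0.09 over all tested genes, and 30 of the 69 members had a difference above 0, or 43.5%, against 61.7% of all genes. The 95% interval reached a median of 0.44 to each side of the difference, and for 49 of the 69 members it lay wholly within 1 on the log2 scale.

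**Figure D2:**
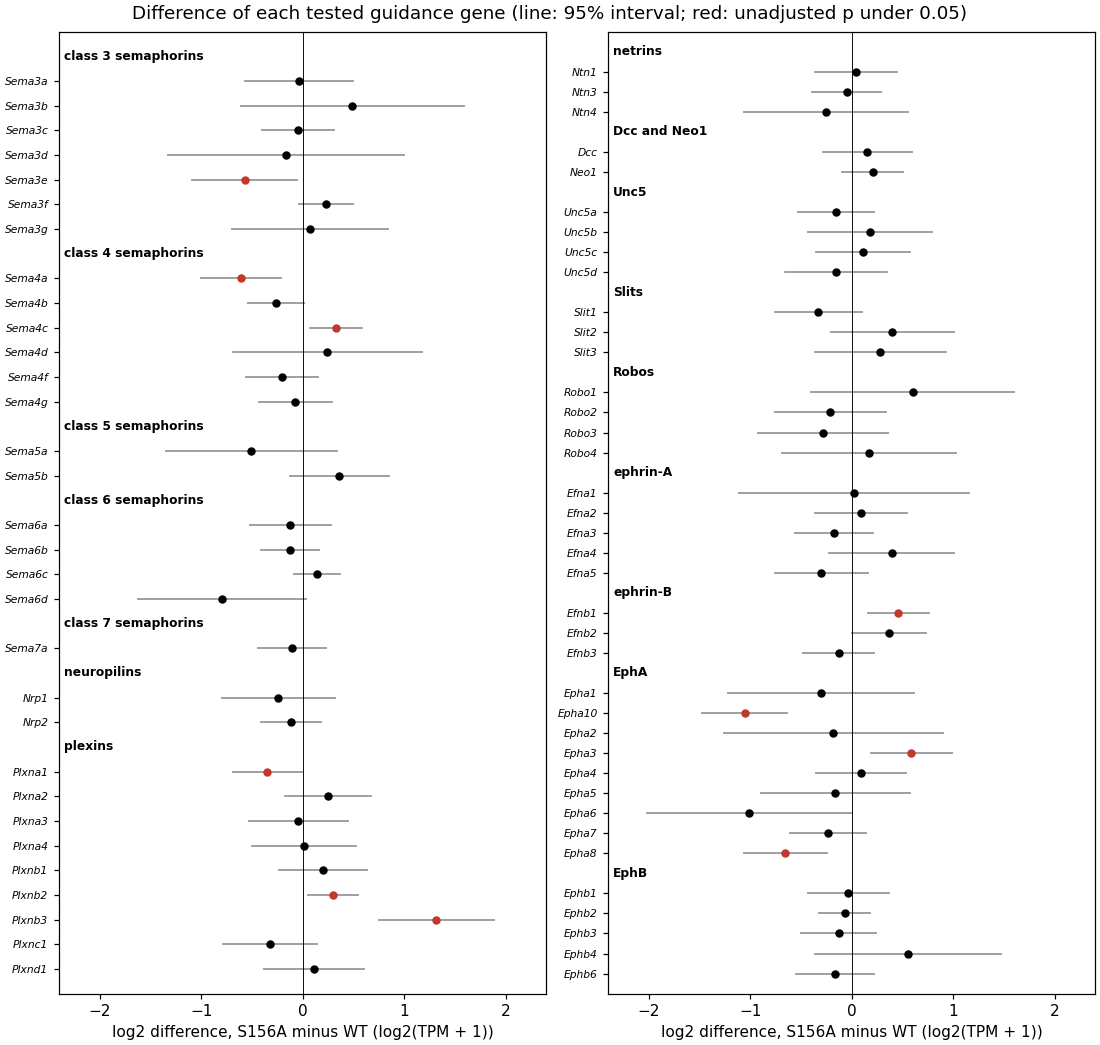
Log2 difference (horizontal axis, S156A minus WT on the log2(TPM + 1) scale) of each of the 69 tested members, grouped by family, with its 95% interval from limma. Red points mark the 10 members with an unadjusted p under 0.05, of which Plxnb3 lies farthest to the right (1.32) and Epha10 farthest to the left (-1.06).

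The promoter windows of the 4 members with the smallest p are shown so that these genes, 2 lower and 2 higher in S156A, can be compared by sequence. Each is the 250 bases before the RefSeq gene start on GRCm38.p6, another build than the files', and 60 of the 70 members had such a window. Capitals mark the GC box GGGCGG, the CCAAT box, the E-box CAGCTG, the Sox core ACAAAG and the TATA box TATAAA, on both strands. Epha10 is shown from chr4:124881535-124881784 (plus strand), Epha8 from chr4:136956817-136957066 (minus strand), Plxnb3 from chrX:73756853-73757102 (plus strand) and Efnb1 from chrX:99135811-99136060 (plus strand).
Epha10: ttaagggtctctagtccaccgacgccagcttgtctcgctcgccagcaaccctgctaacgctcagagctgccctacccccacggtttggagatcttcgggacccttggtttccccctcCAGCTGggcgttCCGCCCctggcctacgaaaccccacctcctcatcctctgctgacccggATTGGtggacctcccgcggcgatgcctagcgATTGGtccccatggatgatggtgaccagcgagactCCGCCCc
Epha8: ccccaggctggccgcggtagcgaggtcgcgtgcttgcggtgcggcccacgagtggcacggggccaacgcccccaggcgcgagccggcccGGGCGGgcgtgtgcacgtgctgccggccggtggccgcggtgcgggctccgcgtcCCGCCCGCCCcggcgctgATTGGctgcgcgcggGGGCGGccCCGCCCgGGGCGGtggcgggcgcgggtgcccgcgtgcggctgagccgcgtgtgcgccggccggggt
Plxnb3: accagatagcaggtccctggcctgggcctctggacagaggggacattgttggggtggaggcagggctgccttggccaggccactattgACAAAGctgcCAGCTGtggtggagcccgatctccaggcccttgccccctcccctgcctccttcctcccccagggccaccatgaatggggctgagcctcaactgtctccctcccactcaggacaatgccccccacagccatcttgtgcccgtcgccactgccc
Efnb1: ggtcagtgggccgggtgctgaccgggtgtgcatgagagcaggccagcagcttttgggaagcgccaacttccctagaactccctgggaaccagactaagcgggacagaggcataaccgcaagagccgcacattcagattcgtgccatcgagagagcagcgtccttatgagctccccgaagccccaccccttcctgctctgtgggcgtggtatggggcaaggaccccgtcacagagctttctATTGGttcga
The windows held 17 CpG pairs in Epha10, 46 in Epha8, 3 in Plxnb3 and 13 in Efnb1. The median was 6 over 32536 windows of the same length, which were not limited to expressed genes. Whether CpG content goes with the direction of the difference was not tested. The GC content was 63.6% for Epha10, 84% for Epha8, 65.2% for Plxnb3 and 60% for Efnb1, against a median of 52.4% over the same windows. The GC box occurred 2 times in Epha10 and 6 times in Epha8, overlapping copies counted, and was present in 33.0% of all windows. The CCAAT box occurred 2 times in Epha10 and 1 time each in Epha8 and Efnb1, and in 33.8% of all windows. Plxnb3 held 1 Sox core and 1 E-box, present in 16.5% and 13.1% of windows, and Epha10 held 1 E-box. The TATA box, in 12.3% of windows, was in none of the 4. These matches are descriptions of letters and not of binding sites.

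Among the Eph receptors, the lowest p belonged to Epha10, which encodes a receptor whose kinase domain lacks activity. Epha10 (ENSMUSG00000028876.8, plus strand of chromosome 4, 124774692 to 124811593 in the files' coordinates) was at 7.30, 7.47 and 8.63 TPM in S156A replicates 1 to 3, against 19.8, 17.8 and 14.5 TPM in WT replicates 1 to 3. The groups did not overlap, and the S156A mean was 0.449 of the WT mean. The log2 difference was -1.06 (SE 0.18, 95% interval -1.47 to -0.64; limma adjusted p = 0.080), just short of the threshold. Over 23 alternative settings its adjusted p ran from 0.028 to 0.38.

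Epha8, a receptor known from the developing mouse midbrain, lies on the same chromosome (minus strand, 136656730 to 136684127). It was at 15.9, 19.2 and 15.8 TPM in S156A, against 30.5, 30.1 and 21.8 TPM in WT. The groups did not overlap, and the log2 difference was -0.66 (SE 0.17; limma adjusted p = 0.20). Epha3, a receptor for ephrin-A ligands, had the opposite sign, with 27.3, 29.5 and 21.4 TPM in S156A, against 14.9, 17.1 and 18.7 TPM in WT (log2 difference 0.59, SE 0.17; adjusted p = 0.22). Every S156A library was above every WT library for Epha3. Epha4, the most abundant EphA receptor and one that binds ephrins of both classes, was at 46.7, 67.0 and 45.8 TPM in S156A, against 52.6, 55.2 and 40.7 TPM in WT, with overlapping groups. Of the 9 EphA receptors, 2 had a difference above 0 and 7 below.

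Markers of brain regions were summed in the same libraries. Of 10 midbrain dopaminergic and serotonergic markers, 0 were called and all 10 had a difference below 0, where 61.7% of all tested genes were above 0. They summed to 46.9 to 52.7 TPM in S156A and 87.9 to 115 TPM in WT. The groups overlapped in Pitx3, En1 and Nr4a2, and did not overlap in the other markers. Th, which encodes an enzyme of dopamine synthesis, was detected in every library. Pitx3 was at 9.02, 0 and 0.902 TPM in S156A, against 2.02, 0.741 and 7.20 TPM in WT. Its highest libraries, S156A replicate 1 and WT replicate 3, also held the most skeletal muscle RNA, as described below. Of 10 thalamic markers, 0 were called and 8 had a difference below 0, with overlapping sums of 321 to 487 TPM in S156A and 409 to 615 TPM in WT. The part of these regions in the values of Epha8 and Epha10 was not tested. In whole-tissue RNA, fewer cells of a type and less RNA per cell cannot be told apart.

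The 5 EphB receptors had log2 differences between -0.17 and 0.55, none at an unadjusted p under 0.05. Ephb1, the most abundant, was at 46.5, 69.1 and 58.8 TPM in S156A, against 64.6, 62.0 and 50.7 TPM in WT (log2 difference -0.03, 95% interval -0.44 to 0.37). Ephb4, the receptor of venous endothelium, was at 29.3, 14.8 and 13.5 TPM in S156A, against 7.83, 11.0 and 19.7 TPM in WT. Its groups overlapped, with S156A replicate 1 and WT replicate 3 the highest of their groups.

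Among the ephrin-B ligands, Efnb1, an X-linked gene expressed in cortical progenitors, was at 59.3, 63.1 and 53.2 TPM in S156A, against 43.0, 37.3 and 46.8 TPM in WT. The groups did not overlap (log2 difference 0.46, SE 0.13, 95% interval 0.16 to 0.76; limma adjusted p = 0.21). Efnb2, the ephrin of arterial endothelium and also of neural cells, named after its values were seen, was at 68.7, 99.6 and 70.8 TPM in S156A, against 62.5, 60.9 and 59.2 TPM in WT, again without overlap (adjusted p = 0.36). Efnb3, a midline ligand of corticospinal axons, was the most abundant member of all, at 146, 183 and 173 TPM in S156A, against 204, 195 and 152 TPM in WT, and its groups overlapped. The ephrin-A ligands, which are tethered to the membrane by a lipid anchor, had log2 differences between -0.30 and 0.39, none at an unadjusted p under 0.05. Efna3 was at 38.2, 49.4 and 47.3 TPM in S156A, against 51.1, 60.0 and 42.6 TPM in WT. Efna5, a ligand that patterns retinal and thalamic projections, was at 11.2, 15.5 and 12.4 TPM in S156A, against 15.8, 19.5 and 13.6 TPM in WT (log2 difference -0.30, SE 0.20).

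Plxnb3, a plexin expressed in rodent oligodendrocytes and known as a receptor for Sema5a, had the largest difference of the 69 members on the log2(TPM + 1) scale. Plxnb3 (ENSMUSG00000031385.15, plus strand of chromosome X, 72800696 to 72816120) was at 4.63, 4.43 and 4.93 TPM in S156A replicates 1 to 3, against 1.23, 0.948 and 1.69 TPM in WT replicates 1 to 3. The S156A mean was 3.62 times the WT mean, and the lowest S156A library was well above the highest WT library. The log2 difference was 1.32 (SE 0.24, 95% interval 0.75 to 1.88; limma adjusted p = 0.094), short of the threshold. At this low level the size depends on the scale: it was 1.81 with a pseudocount of 0.1, 0.62 with a pseudocount of 5 and 0.83 in FPKM, and in the last 2 Epha10 had the larger difference, at -0.80 and -0.92. Of 11 oligodendrocyte lineage markers in the same libraries, 8 had a difference above 0 and 1 was called, with a summed level of 336 to 445 TPM in S156A and 260 to 295 TPM in WT and none of the 11 at 0 in any library. The called marker was Gpr17, of committed precursors, at 29.5, 34.8 and 31.1 TPM in S156A, against 13.9, 13.3 and 10.6 TPM in WT (limma adjusted p = 0.046). The 3 with a difference below 0, all with overlapping groups, were Pdgfra (-0.56) and Cspg4 (-0.32), of oligodendrocyte precursors, and the transcription factor Olig1 (-0.28). Pdgfra is also 1 of the 12 meninges and connective tissue markers given below. In Pdgfra, Cspg4 and Sox10, the last with a difference above 0, S156A replicate 1 and WT replicate 3 were the highest of their groups. The part of the oligodendrocyte lineage in the Plxnb3 value was not tested.

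Plxnb2, a plexin of neural progenitors, was at 123, 127 and 107 TPM in S156A, against 101, 93.1 and 94.4 TPM in WT (log2 difference 0.30, SE 0.11; limma adjusted p = 0.29). Sema4c, a ligand of plexin-B2, was at 66.7, 66.7 and 64.4 TPM in S156A, against 57.3, 53.0 and 47.0 TPM in WT (log2 difference 0.33, SE 0.11; adjusted p = 0.27). In both genes every S156A library was above every WT library. All 11 intermediate progenitor and radial glia markers also had a difference above 0, as did 61.7% of all tested genes. None of the 11 was called, and they summed to 2129 to 2559 TPM in S156A and 1821 to 2109 TPM in WT. None of them was at 0 in any library. The sum rests largely on Fabp7 and Vim, whose groups overlapped. Fabp7 was at 1096, 1348 and 1612 TPM in S156A, against 1466, 1219 and 947 TPM in WT. Vim was at 634, 417 and 460 TPM in S156A, against 288, 295 and 535 TPM in WT. The groups did not overlap in Nes, Neurog2, Eomes and Insm1, and overlapped in the other markers. The part of the 11 markers in the values of Plxnb2, Sema4c and Efnb1 was not tested.

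Plxna1, the partner of neuropilin-1 for class 3 semaphorins, pointed the other way, with 79.0, 100 and 75.8 TPM in S156A, against 111, 119 and 94.3 TPM in WT. Here the groups overlapped, since S156A replicate 2 exceeded WT replicate 3 (log2 difference -0.35, SE 0.15; limma adjusted p = 0.35). Neuropilin-1 (Nrp1) was at 40.8, 57.6 and 30.8 TPM in S156A, against 40.6, 55.1 and 53.9 TPM in WT. Neuropilin-2 (Nrp2), the more abundant of the pair, was at 68.7, 62.0 and 52.9 TPM in S156A, against 69.9, 65.7 and 62.3 TPM in WT. Neither neuropilin separated the groups. Of the 9 plexins, 6 had a difference above 0 and 3 below.

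Among the semaphorins, Sema4a, which binds plexins of classes B and D, was at 20.5, 27.8 and 27.2 TPM in S156A, against 36.0, 45.4 and 35.2 TPM in WT. The groups did not overlap (log2 difference -0.61, SE 0.17; limma adjusted p = 0.21). Sema4b, named after its values were seen, also had no overlap, at 23.3, 23.7 and 21.3 TPM in S156A, against 28.6, 26.5 and 27.3 TPM in WT (log2 difference -0.26, SE 0.12). Sema4g, the most abundant class 4 member, was at 66.1, 70.0 and 49.6 TPM in S156A, against 69.6, 65.6 and 58.7 TPM in WT. Sema3e, which binds plexin-D1 without a neuropilin, was at 2.08, 2.30 and 2.06 TPM in S156A, against 3.29, 3.72 and 4.02 TPM in WT. Its groups did not overlap either (log2 difference -0.57, SE 0.22; adjusted p = 0.33). Sema3f, the most abundant class 3 member and a neuropilin-2 ligand, was at 45.5, 41.5 and 42.8 TPM in S156A, against 36.2, 40.1 and 34.2 TPM in WT, every S156A library being higher (log2 difference 0.23, SE 0.11; adjusted p = 0.42).

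The other semaphorins named here did not separate the groups by level, apart from a small difference in Sema6c. Sema6c, the most abundant class 6 member, was at 79.0, 88.0 and 87.4 TPM in S156A, against 77.2, 74.4 and 78.7 TPM in WT (log2 difference 0.14, SE 0.10), the lowest S156A library lying just above the highest WT library. Sema5b was at 28.3, 33.8 and 29.2 TPM in S156A, against 30.5, 17.4 and 24.0 TPM in WT. Sema7a, which acts through Plxnc1 and integrins, was at 45.5, 54.6 and 48.2 TPM in S156A, against 54.5, 61.1 and 45.1 TPM in WT. Sema6d, a ligand of plexin-A1, was at 9.83, 16.1 and 29.0 TPM in S156A, against 33.4, 32.1 and 24.3 TPM in WT, the S156A libraries spreading over a wide range.

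Of the tested netrins, Slits and their receptors none had an unadjusted p under 0.05 on the annotated rows. Ntn1, the main attractant of commissural axons, was at 36.5, 40.4 and 35.7 TPM in S156A, against 46.2, 34.7 and 29.8 TPM in WT (log2 difference 0.04, 95% interval -0.36 to 0.45). Ntn4, a netrin of basement membranes, was at 2.62, 7.59 and 5.80 TPM in S156A, against 6.60, 5.04 and 6.85 TPM in WT. Neo1, a receptor for netrins and repulsive guidance molecules, was at 98.5, 109 and 85.0 TPM in S156A, against 85.5, 90.5 and 76.6 TPM in WT. All these groups overlapped. Unc5a, the most abundant Unc5 receptor, was at 34.2, 39.9 and 32.1 TPM in S156A, against 43.4, 43.9 and 32.2 TPM in WT. Slit1, the most abundant Slit, was at 33.0, 42.6 and 28.1 TPM in S156A, against 47.6, 46.1 and 36.5 TPM in WT (log2 difference -0.33, SE 0.18). Both overlapped, although each S156A mean was the lower one. Robo2 was at 26.5, 50.3 and 31.1 TPM in S156A, against 45.7, 37.8 and 37.9 TPM in WT. Robo1, the other main neuronal Slit receptor, was at 21.6, 43.0 and 27.7 TPM in S156A, against 33.0, 21.3 and 9.92 TPM in WT, and its groups overlapped too.

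**Figure D3:**
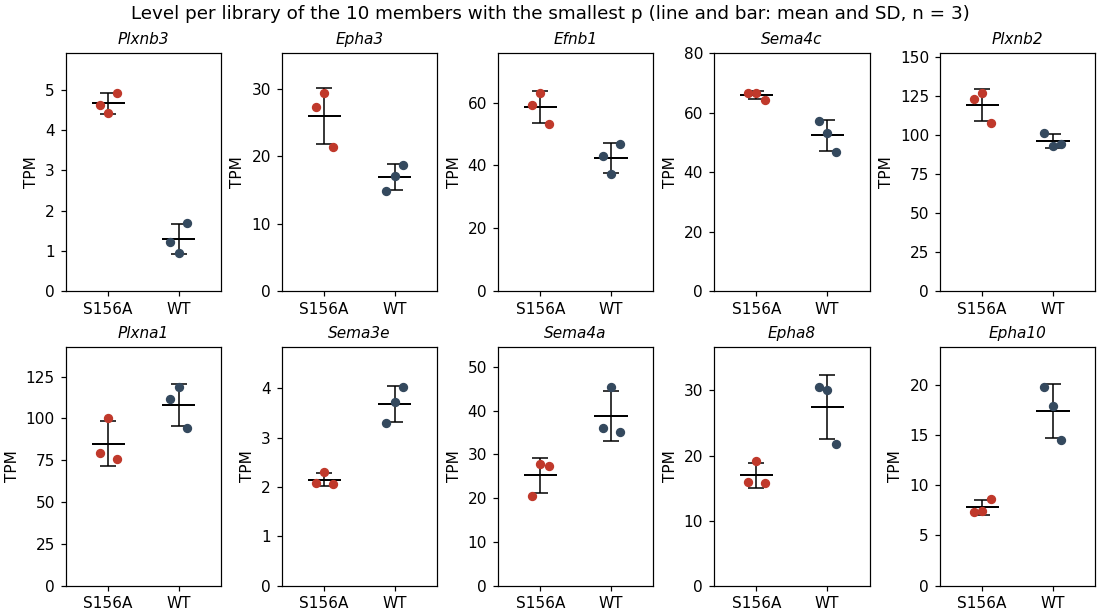
TPM (vertical axis, from 0) of the 10 members with an unadjusted p under 0.05 in each S156A (red, left) and WT (grey-blue, right) library, with mean and SD. In 9 of the 10 panels the groups do not overlap, and Plxna1 is the exception.

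The deposited tables hold a second account of the same reads: besides the annotated rows, each library has rows of loci that the authors' assembler built without an annotated name. For each gene, the assembled row on its strand with the highest TPM was taken, if at least 50% of its span lay inside the gene, a measure chosen after the annotated values were seen. Such a row existed in all 6 libraries for 66 of the 70 members. For 27 members it was within 10% of the annotated value in every library (compared on TPM + 1), and for 22 it differed by more than 1.5 times in at least 1 library. For genes assembled in several pieces the choice of the highest piece raises the value, so these levels are not totals.

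On the assembled loci, Epha10 passed the threshold. It was at 7.30, 9.26 and 9.28 TPM in S156A, against 27.8, 23.8 and 23.4 TPM in WT (log2 difference -1.44, SE 0.16; limma adjusted p = 0.028). Epha10 was the 1 member called of 66 tested, where 0.239% of 15896 genes were called. It was also called without S156A replicate 1 and WT replicate 3 (log2 difference -1.38, adjusted p = 0.041). At an unadjusted p under 0.05 there were 9 members, or 13.6%, against 14.7% of all genes. Plxnb3 was at 7.50, 4.86 and 6.93 TPM in S156A, against 2.69, 2.82 and 3.55 TPM in WT, and its log2 difference was 0.87 (SE 0.23; adjusted p = 0.17). For Plxnb3 the highest row was picked from 4, 1 and 1 pieces in S156A, and from 8, 3 and 3 in WT. For Epha10 it was picked from 3 pieces in S156A replicate 2 and was the only piece in every other library.

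Of the 66 members tested both ways, 47 had a smaller difference on the assembled loci and 17 a larger one, and 7 had an unadjusted p under 0.05 in both. The genes given here were chosen after their values were seen, 6 with a smaller difference and 1 with a larger one. Sema6d was at 36.7, 39.5 and 39.6 TPM in S156A, against 45.7, 36.2 and 46.3 TPM in WT, so its log2 difference was -0.13 (SE 0.13) in place of -0.79 (SE 0.35). Sema5a, an inhibitory and attractive cue for several tracts, had 4.21 TPM in the annotated row of S156A replicate 3 and 10.5 TPM in the assembled one, and its log2 difference was -0.08 (SE 0.17) in place of -0.51 (SE 0.36). Epha6 was at 0.390, 0.428 and 0.447 TPM in S156A, against 4.30, 1.53 and 0.746 TPM in WT in the annotated rows. On the assembled loci it was at 2.79, 4.83 and 2.69 TPM in S156A, against 5.58, 5.26 and 3.72 TPM in WT, where the groups overlap. Robo1 was at 57.0, 89.4 and 62.1 TPM in S156A, against 69.4, 68.8 and 54.0 TPM in WT, with a log2 difference of 0.10 (SE 0.19) in place of 0.60 (SE 0.43). Sema3e had a log2 difference of -0.19 (SE 0.20) in place of -0.57 (SE 0.22). Sema4a had one of -0.40 (SE 0.18) in place of -0.61 (SE 0.17). Unc5d, a netrin receptor of cortical neurons, went the other way. It was at 12.1, 20.1 and 13.4 TPM in S156A, against 21.0, 22.2 and 23.9 TPM in WT, without overlap, and its log2 difference was -0.56 (SE 0.20, unadjusted p = 0.026, limma adjusted p = 0.28) in place of -0.16 (SE 0.21).

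**Figure D4:**
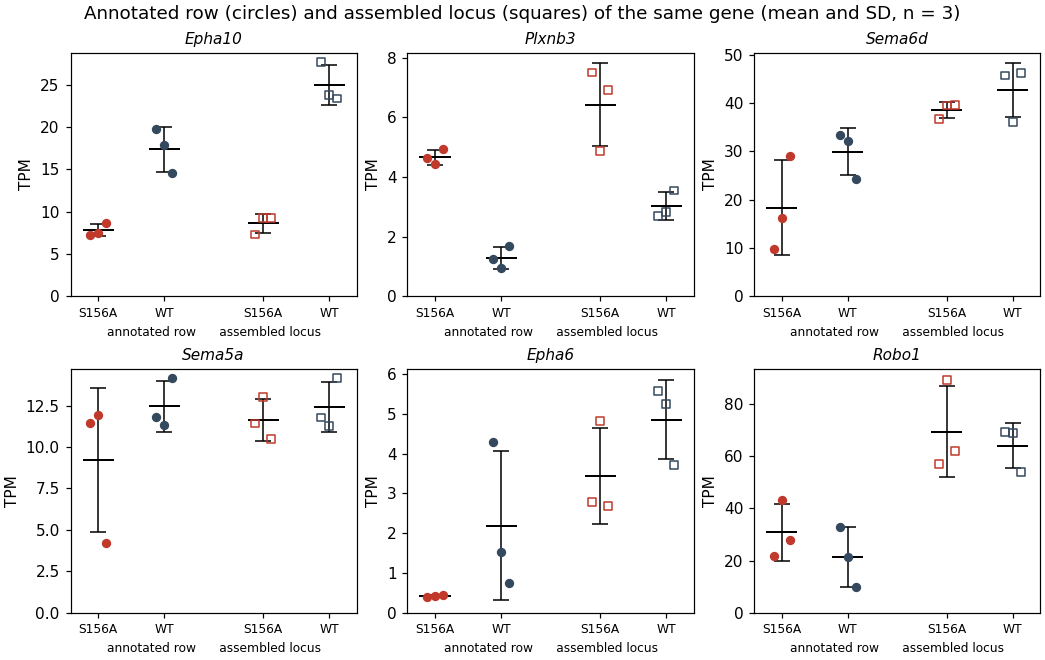
TPM (vertical axis, from 0) of 6 members in the annotated row (filled circles) and the assembled locus (open squares), S156A in red left of WT in grey-blue, with mean and SD. The gap between groups is wider for Epha10 on the assembled loci and narrower for Sema6d, Sema5a and Robo1.

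The libraries also differed in ways that did not follow genotype. The 14 skeletal muscle markers summed to 9916, 82.2 and 65.5 TPM in S156A replicates 1 to 3, against 15.9, 1177 and 9669 TPM in WT replicates 1 to 3, with Myod1 and Tnnc2 listed at 0 in some libraries. The 12 meninges and connective tissue markers summed to 2887, 496 and 491 TPM in S156A, against 250, 624 and 2375 TPM in WT, none of them at 0. S156A replicate 1 and WT replicate 3 thus held the most of both.

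A group of 14 members was highest in S156A replicate 1 among S156A and in WT replicate 3 among WT: Epha1, Epha2, Ephb3, Ephb4, Robo4, Slit2, Unc5b, Sema3b, Sema3d, Sema3g, Efna1, Efna4, Ntn5 and Plxnd1. Several of these, such as Robo4, Ephb4, Unc5b and Plxnd1, are known from blood vessels. Efnb2, of arterial endothelium and neural cells, had the reverse order. Of the group of 14, the 13 that were tested are 18.8% of the members, against 19.8% of all tested genes. Sema3b was at 14.9, 4.93 and 5.46 TPM in S156A, against 3.40, 4.07 and 8.89 TPM in WT. Efna1 was at 16.9, 4.46 and 7.51 TPM in S156A, against 5.84, 6.69 and 14.1 TPM in WT. In both, 1 library of each group stands far above the others, whichever genotype it has. The 10 endothelial markers summed to 315, 292 and 298 TPM in S156A, against 224, 234 and 282 TPM in WT, none at 0, so their sum was also highest in these libraries within each group. Of the 10, 4 had that order themselves (Pecam1, Cdh5, Tie1 and Emcn). Cldn5, the most abundant of them, did not have it in S156A, at 131, 150 and 178 TPM in S156A, against 103, 106 and 121 TPM in WT.

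The reverse order, lowest in those 2 libraries, held for 23 members, or 33.3%, against 22.1% of all tested genes. Among them were Dcc, Epha5, Epha7, Epha10, Ephb1, Sema6a, Sema6b, Sema7a, Efna2, Efna3, Efna5, Efnb2, Efnb3, Plxna4 and Plxnc1. Dcc, the netrin receptor of commissural axons, was at 20.8, 32.6 and 24.5 TPM in S156A, against 24.7, 23.9 and 20.2 TPM in WT. Neuron markers summed to 2876, 4091 and 3913 TPM in S156A, against 5069, 4633 and 3748 TPM in WT, and were likewise lowest in these libraries within each group. Genes of this paragraph and the one before were named after their values were seen. Without the 2 libraries, 0 members were called, and 3 were higher and 5 lower at an unadjusted p under 0.05.

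**Figure D5:**
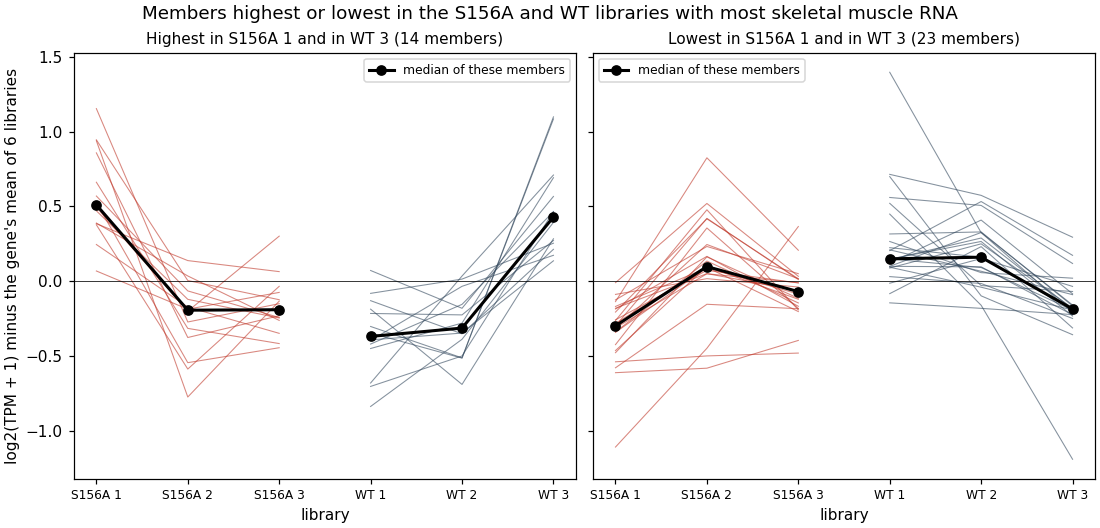
Level of each member minus its mean over the 6 libraries (vertical axis, log2(TPM + 1)) by library, for the 14 members highest (left) and the 23 lowest (right) in S156A replicate 1 and in WT replicate 3, with the median in black. The black line peaks at those libraries on the left and dips there on the right because the members were chosen by that order.

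Further genes of the guidance pathways, 44 intracellular partners and other cues that are no members, were counted in the same fit. None was called, and at an unadjusted p under 0.05 there were 3 higher and 8 lower in S156A. These 11 are 25% of the list, against 13.9% of all tested genes, with 6.82% higher and 18.2% lower, against 8.41% higher and 5.5% lower. Their median log2 difference was -0.06. Ntng1, a netrin-related protein of thalamic axons in mouse, was at 10.4, 9.14 and 9.46 TPM in S156A, against 20.8, 24.4 and 19.2 TPM in WT (log2 difference -1.07, SE 0.16; limma adjusted p = 0.064). Ablim3, an actin-binding protein, was at 54.2, 64.1 and 49.8 TPM in S156A, against 119, 106 and 90.5 TPM in WT (-0.90, SE 0.15; adjusted p = 0.076). In both the groups did not overlap. Draxin, a secreted ligand of netrin and Dcc, was at 65.5, 82.5 and 72.0 TPM in S156A, against 55.6, 52.9 and 44.8 TPM in WT (0.51, SE 0.13), and Mical2, an enzyme that oxidises actin, had a log2 difference of 0.92 (SE 0.25). Gap43, of the growth cone, was at 556, 791 and 884 TPM in S156A, against 1354, 1257 and 946 TPM in WT. Farp1, an exchange factor linked to semaphorin signalling, had a log2 difference of -0.50 (SE 0.17).

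Facts of the series that bear on these values are few. The mutated gene, Ppme1, was at 72.4, 89.0 and 82.7 TPM in S156A, against 92.4, 95.03 and 74.0 TPM in WT, which does not check the labels because a point mutation need not alter transcript level. No member lies within 10 Mb of it. By the files' coordinates 5 members overlap another expressed gene on the same strand and 11 on the opposite strand. The authors' strand setting is unknown here, so reads of such pairs may be mixed. Among the 11, the overlapping genes had means of 1.19 TPM for Epha10, 5.15 TPM for Sema4c, and 1.38 and 1.16 TPM for Plxna1, each far below its member. The overlapping gene was the more abundant for Ntn3 (Tbc1d24, same strand, 56.7 against 11.9 TPM). It was also so on the opposite strand for Epha1 (Zyx, 50.9 against 1.11 TPM) and Epha5 (Hmgn2-ps1, 35.6 against 25.6 TPM). Estimated depth was 3.24 to 4.14 aligned gigabases in S156A and 3.15 to 3.37 in WT. Over all tested genes 0.159% were called and 61.7% had a difference above 0. Microglia markers had 5 of 12 called and all 12 above 0, with overlapping groups in P2ry12 and Tmem119. Astrocyte markers had 1 of 9 called and 7 above 0, and of 10 cortical projection neuron markers 0 were called and 8 were above 0. Of 11 hindbrain and spinal markers 2 were called, and 9 had a difference below 0.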

How the data were processed

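Total RNA from whole E18.5 brain was sequenced from directional libraries, per the labels' protocols, which pool 3 brains per tube. Trim Galore (0.6.6), HISAT2 (2.2.1) and, for quantification, StringTie (2.1.5) were used per the submitters' processing notes, which also list hg38, although rows carry mouse Ensembl identifiers. The strand setting and annotation are not stated in these sources. Only 3.18% of 38083 genes matched by symbol start within 1000 bases of their GRCm38 position, so coordinates are given as the files have them. The deposited TPM signal and FPKM values are StringTie gene abundances, per the file headers; TPM is a share of a library. The deposited coverage is the mean read depth per base, and depth was estimated from its commonest ratio to FPKM. Read counts were not used here, so no counting intervals are given.

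Rows sharing a gene identifier were summed (7 genes, 0 of them members). All genes with a mean of at least 1 TPM were tested with limma 3.58.1 in R 4.3.3 on log2(TPM + 1), two-sided, with eBayes and a mean-variance trend and no covariate. P-values were adjusted by Benjamini-Hochberg over all tested genes, with a threshold of 0.05. The fit was tested on simulated data.

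Members, picked by name, and lists were chosen with earlier results of these data known. Values in every library are given for members with an unadjusted p under 0.05 and for the most abundant member and the member with the smallest p of each family. From the other pathway genes the 6 with the smallest p were named. Alternatives were other units, pseudocounts, filters, scalings, variance models, covariates and sets of libraries. Assembled loci were added after the data were seen. P-values set the difference between groups against the spread between these pools, which eBayes moderates over genes.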

Additional observations from a re-analysis of the deposited data

How the results depend on the processing

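The count of called members was 0 with every library left out in turn and under every other alternative on the annotated rows except library weights, which called 2 (Epha10 at -1.05, Plxnb3 at 1.43), and the skeletal muscle covariate, which called 1 (Epha10 at -1.07). On assembled loci it was 1, with or without S156A replicate 1 and WT replicate 3. At an unadjusted p under 0.05, 5 members were higher and 5 lower. Trimmed-mean scaling gave 3 higher and 10 lower, library weights 9 lower, the Y-linked covariate 3 lower, the skeletal muscle covariate 8 higher and 8 lower, leaving out S156A replicate 1 and WT replicate 3 together 3 higher, and assembled loci 3 lower, also without those 2 libraries. With 1 library left out, 4 to 7 were higher and 3 to 7 lower, the 3 coming without S156A replicate 1, WT replicate 1 or WT replicate 2. The median log2 difference of the members ran from -0.12 to -0.02 with 1 library left out. It was -0.14 under trimmed-mean scaling and -0.13 under quantile normalization, against -0.05 in the main fit. The cause of these shifts was not tested.

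The 10 members with an unadjusted p under 0.05 kept their sign in every alternative that tested them. They had been chosen by p in the same libraries, so a kept sign was likely from the start. The limma unadjusted p stayed under 0.05 in 12 of 22 alternatives for Sema3e, 13 of 23 for Plxnb2 and 14 of 21 for Plxna1. For Sema4c it did so in 18 of 23, for Sema4a in 22 of 23, and for the rest of the 10 in all. Sign changes, all at adjusted p above 0.6, occurred in 7 of the named members outside these 10. In Epha4, Ephb1, Ntn1 and Sema4g the difference was within 0.1 of 0; it was -0.26 in Ntn4, -0.24 in Nrp1 and 0.21 in Neo1. Epha4 was at -0.0015 under trimmed-mean scaling, -0.046 with library weights, -0.049 on assembled loci without S156A replicate 1 and WT replicate 3, and between -0.083 and 0.187 with 1 library left out. Ephb1 was at 0.092 with the Y-linked covariate, 0.010 without those 2 libraries and between -0.165 and 0.115 with 1 left out. Ntn1 was at -0.048 under trimmed-mean scaling, -0.016 under quantile normalization, -0.0021 with library weights, -0.074 without the 2 libraries, -0.081 on assembled loci without them and between -0.094 and 0.215 with 1 left out. Ntn4 was at 0.059 with the Y-linked covariate, 0.17 without the 2 libraries, 0.036 on assembled loci, 0.18 on those without the 2 and between -0.521 and 0.103 with 1 left out. Nrp1 was at 0.097 and 0.19 on assembled loci with and without the 2, Neo1 at -0.00092 on those without the 2, and Sema4g between -0.167 and 0.076 with 1 library left out.

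Replicate numbers are shared by the groups, but same-numbered libraries did not deviate together (correlations over genes of -0.55, 0.19 and -0.41 for numbers 1 to 3). With the replicate number as a block, 0 members were called, 4 were higher and 4 lower at an unadjusted p under 0.05, and the median was -0.05. Depth cannot be given as counts, and the width of the intervals limits what is said of low genes such as Epha6 and Sema3d.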
